A study of Mus musculus with 8 samples.

Results

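The cytochrome P450 genes of families 1 to 4, which encode the enzymes that oxidize drugs, other foreign compounds, steroids and fatty acids, were described in primary mouse hepatocytes cultured on a soft or a stiff hydrogel. Members were the protein-coding genes whose symbol is Cyp followed by a family number from 1 to 4, 1 subfamily letter and a number, which gave 76 of the 56748 genes in the count table. Family 1 held 3 of them, family 2 held 49, family 3 held 7 and family 4 held 17, in 21 subfamilies. A symbol that ends in a letter, such as Cyp4a12a or Cyp3a41a, lies outside this definition. Counts were found for 69 members in at least 1 library, and 54 passed the filter on low counts and were tested. The other 22 never exceeded 12 counts in a library, and 7 of these had no count in any library. The untested genes were Cyp2b19, Cyp2b23, Cyp2c65, Cyp2c66, Cyp2d12, Cyp2d34, Cyp2j7, Cyp2j8, Cyp2j11, Cyp2j12, Cyp2j13, Cyp2s1, Cyp2t4, Cyp2w1, Cyp3a57, Cyp4a29, Cyp4a31, Cyp4f18, Cyp4f37, Cyp4f39, Cyp4f40 and Cyp4x1. Levels are given as normalized CPM, the count scaled by library size. The level that a count of 0 still permits (3 counts, counting error only) lay between 0.113 and 0.164 CPM by library, so these genes were at or near the limit of detection at this depth.

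All mice carried floxed alleles of both genes (Yap fl/fl;Taz fl/fl) and were 7 to 8 weeks old. Knockout mice (Yap/Taz HepKO) received AAV8-TBG-Cre intravenously, and the mice called wild type received AAV8-TBG-Null, so the controls also carried the floxed alleles and a virus. The TBG promoter restricts Cre to hepatocytes, and any other cell type in the preparation would keep both genes. Hepatocytes were isolated 10 days later and cultured for 24 h on collagen-coated polyacrylamide hydrogels of 1 kPa (soft) or 20 kPa (stiff). Each of the 4 groups had 2 libraries. The sources do not say whether the libraries of a group came from separate mice, so p-values measure the spread between these libraries, which may be technical. The sources give the sex of the mice as female in one place and male in another. Xist averaged between 239.8 and 339.6 CPM in the 4 groups, and the Y-linked genes Ddx3y, Uty, Kdm5d and Eif2s3y had 0 counts in all 8 libraries.

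A cytochrome P450 holds a haem iron that activates oxygen and inserts 1 of its atoms into the substrate, with electrons passed on from NADPH by the reductase Por. In the liver lobule most of these enzymes are made by hepatocytes around the central vein (pericentral), whereas a few, such as Cyp2f2, are made by hepatocytes around the portal vein (periportal). Genes of families 1 to 3 respond to receptors for foreign compounds, among them AHR, CAR and PXR, and the fatty acid hydroxylases of subfamily Cyp4a respond to PPARA.

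Library totals ran from 18324083 to 26442310 counts. The targeted genes were lower in every knockout library: Yap1 stood at 99.8 and 95.5 CPM in wild-type soft, 140.5 and 135 in wild-type stiff, 29.1 and 31.8 in knockout soft and 28.4 and 31.3 in knockout stiff libraries. Wwtr1, which encodes TAZ, had 42.5 and 41.5 CPM on soft and 63.9 and 65.2 on stiff in wild type, against 16.00 and 16.6 on soft and 15.7 and 13.7 on stiff in knockout. Of 9 hepatocyte markers found, all were detected in all groups, led by Alb with group means from 54678 to 86595 CPM. On stiff in wild type 4 of the 9 (Fgb, Tat, Asgr1 and Hnf4a) were lower, beside 9.26% of all genes tested. Markers of endothelial, Kupffer and stellate cells were present at low levels and differed between the groups. The 7 endothelial markers summed to 54.4 to 59.8 CPM in wild-type soft, 38.8 to 39.1 in wild-type stiff, 72.4 to 74.2 in knockout soft and 73.1 to 77.1 in knockout stiff libraries. The 7 Kupffer cell and macrophage markers summed to 79.5 to 83.0, 55.0 to 61.7, 113.0 to 114.8 and 116.6 to 118.1 CPM in that order, and the 9 stellate cell and fibroblast markers to 36.4 to 36.5, 24.8 to 26.8, 51.8 to 52.9 and 53.7 to 56.5 CPM. In wild type, 3 of 7 tested endothelial markers (Kdr, Stab2 and Clec4g) were lower on stiff, beside 9.26% of all genes tested. So were 4 of 7 Kupffer cell markers (Clec4f, Marco, Cd5l and Vsig4). Of 8 tested stellate cell markers, 3 were lower (Col3a1, Dcn and Pdgfrb), while Col1a1 was higher, the latter beside 10% of all genes. Among the defining markers of these cells, Lrat had at most 0.0995 CPM in any group mean. Of the 7 cholangiocyte markers, Krt19 was the only one called between the wild-type groups (2.13 against 20.6 CPM), whereas Krt7 had at most 0.0975 CPM and Cftr had 0. The 7 cholangiocyte markers summed to 570.7 to 602.3 CPM in wild-type soft and 621.6 to 626.2 in wild-type stiff libraries. In knockout libraries they summed to 365.4 to 367.1 on soft and 341.1 to 351.2 on stiff. The endothelial, Kupffer cell and stellate cell sums moved in the same direction as the pericentral P450 genes described next. The cholangiocyte sum moved the other way. The part of these cells in the P450 results was not tested. In these bulk libraries, fewer cells of a type and less RNA per cell cannot be told apart.

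Taken as a sum of normalized CPM, the 76 members reached 8452 and 8200.0 in wild-type soft, 6883 and 6815 in wild-type stiff, 9927 and 9865 in knockout soft and 9732 and 9948 in knockout stiff libraries. The wild-type stiff libraries were thus the lowest, and the 4 knockout libraries lay above both wild-type groups without separating by hydrogel. Between 56.9% and 62.0% of the sum came from 4 genes in every group: Cyp2a4, Cyp2a5, Cyp2c29 and Cyp3a11. Per kilobase of gene length in the wild-type soft group, Cyp2a4 led with 908 CPM per kilobase, followed by Cyp2a5 (483), Cyp2c29 (419), Cyp2d10 (248), Cyp2d26 (220.1), Cyp3a11 (207), Cyp1a2 (127), Cyp2e1 (109), Cyp2f2 (88.4) and Cyp2c68 (81.1). In the knockout soft group Cyp2a5 stood first instead, at 1149.9 CPM per kilobase against 862 for Cyp2a4.

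**Figure D1:**
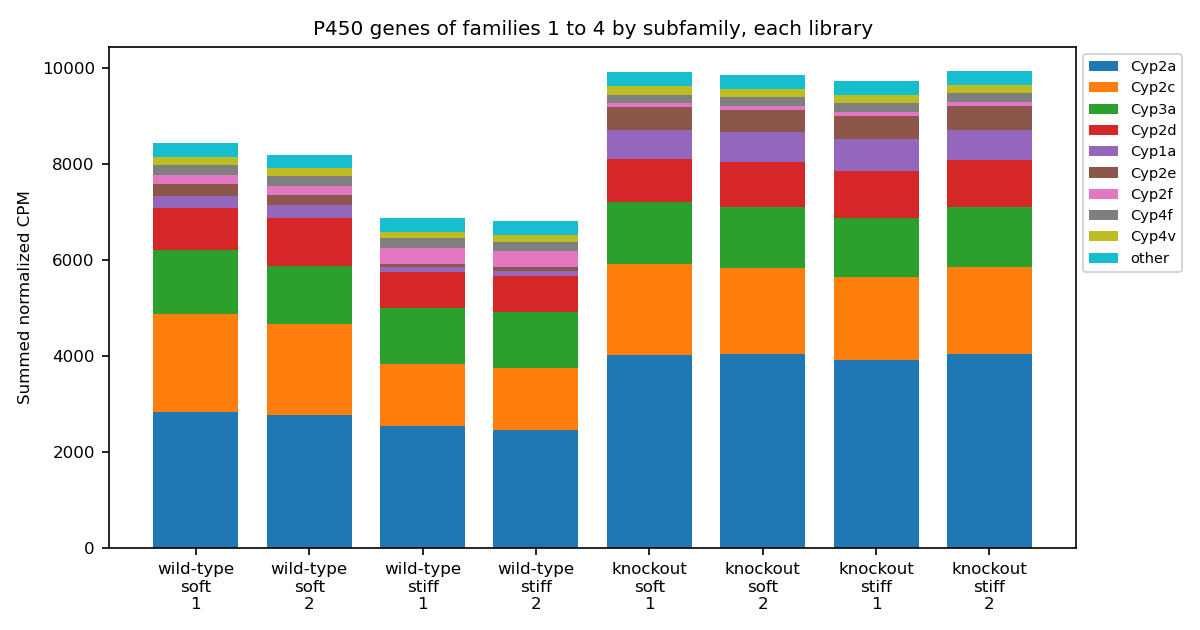
Summed normalized CPM of the P450 genes of families 1 to 4 in each of the 8 libraries (x axis: group and replicate; y axis: summed normalized CPM), with 1 colour for each of 9 subfamilies and 1 for all others. The wild-type stiff libraries have the shortest columns (6883 and 6815), and the Cyp2a, Cyp1a and Cyp2e segments are tallest in the 4 knockout libraries.

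The first comparison addressed how a stiff matrix, which mimics a fibrotic liver, changed these genes in wild-type hepatocytes. On the stiff hydrogel 16 of the 54 tested members fell and 2 rose, which is 33.3% of members in either direction (29.6% lower and 3.7% higher), beside 19.3% of all 14279 genes tested (9.26% lower and 10% higher). A gene was counted when edgeR's quasi-likelihood test gave a Benjamini-Hochberg adjusted p under 0.05 and the log2 fold change was over 0.5 in size. The median log2 fold change was -0.25 over the tested members and -0.01 over all genes tested. Of the 16 that fell, 14 averaged at least 100 counts per library.

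The same comparison in knockout hepatocytes gave no call: 0 of 54 members passed, beside 0.021% of all genes tested (0.014% higher and 0.007% lower). At an unadjusted p under 0.05 there were 2 members by edgeR (Cyp4f13 and Cyp4f16, named because they are the only ones) and 0 by DESeq2, and the lowest adjusted p of a member was 0.61 with edgeR and 1 with DESeq2. The 16 genes that fell in wild type had a median log2 fold change of -0.99 there and -0.02 in knockout. A test of the difference between the genotypes (the interaction term) put 20 members, 37% of those tested, past the same thresholds, beside 16.8% of all genes. The stiffness effect was more positive in knockout for 17 of them (31.5%, beside 8.64% of all genes) and more negative for 3 (5.56%, beside 8.21%).

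**Figure D2:**
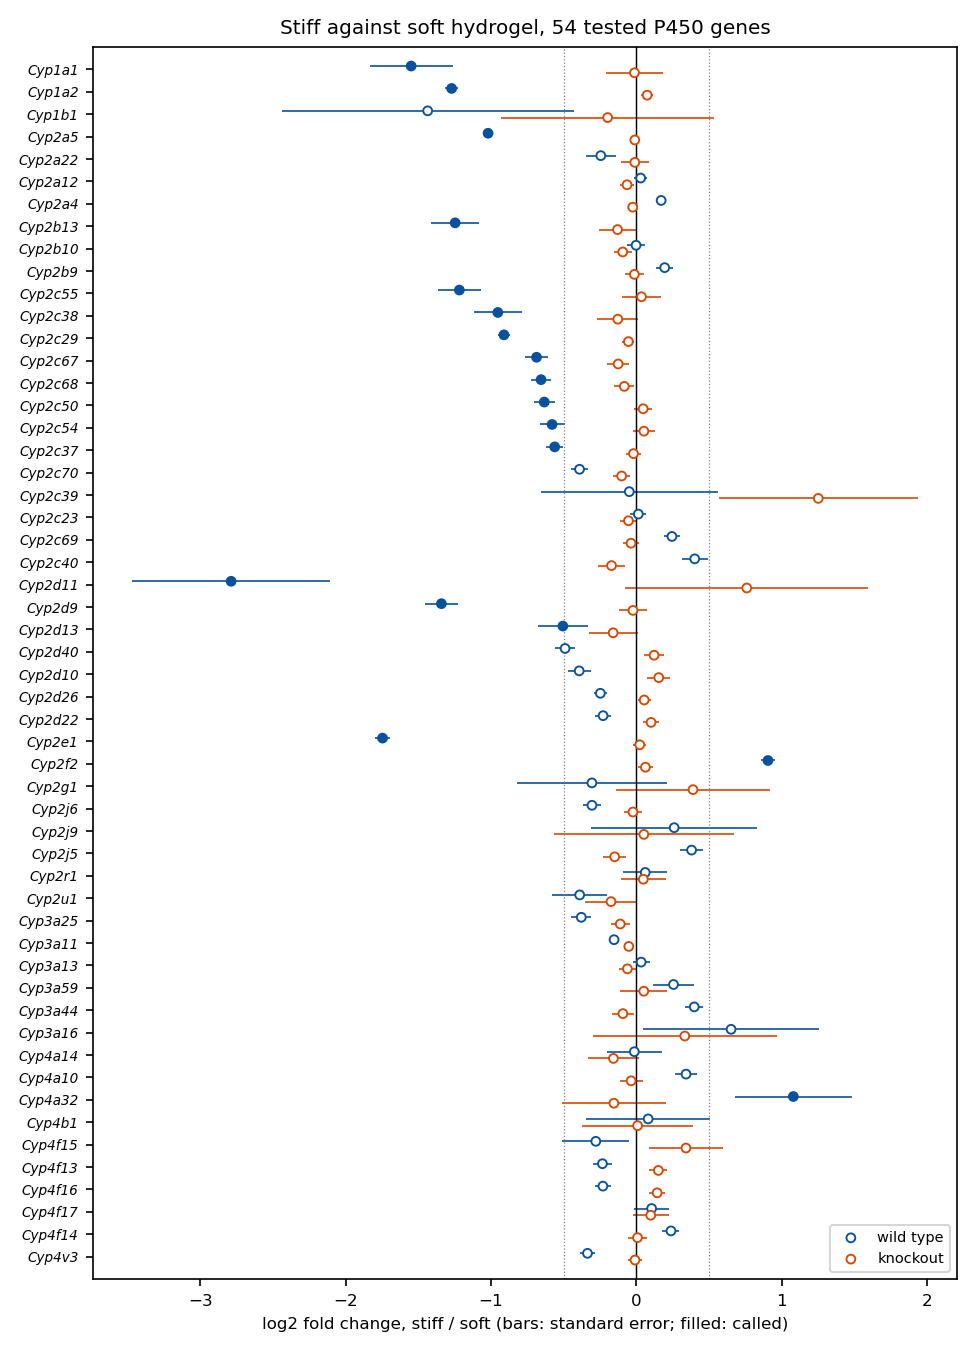
Log2 fold change of stiff against soft hydrogel (x axis) for the 54 tested P450 genes (y axis, ordered by subfamily) in wild type (blue) and knockout (orange), with bars of 1 standard error and filled points for genes counted as changed. Filled points occur in wild type only, 16 of them left of zero and 2 right of it, while the knockout points cluster near zero apart from the low-count genes with wide bars.

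Knockout was also compared with wild type on each hydrogel, which asks how far Yap and Taz set the level of these genes; these comparisons share their wild-type libraries with the first one. On the soft hydrogel 11 members rose and 9 fell in knockout, 37% of those tested, beside 6.67% of all genes (2.02% higher and 4.65% lower). On the stiff hydrogel 18 rose and 7 fell, 46.3% of those tested, beside 28.7% of all genes (13.7% higher and 15% lower). The median log2 fold change of the tested members was 0.01 on soft and 0.20 on stiff, the latter beside 0.01 for all genes.

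Cyp1a2, the enzyme that clears caffeine, and Cyp1a1, the classical target of the receptor AHR, lie next to each other, and both fell on the stiff hydrogel in wild type. The 250 bases before the start of each are shown because the neighbours share this response; capitals mark the TATA box motif TATAAA and, in Cyp1a1, the motif GCGTG that AHR and ARNT bind, and each is written 5′ to 3′ along its gene (RefSeq, GRCm38.p6).
Cyp1a1, chr9:57697363-57697612, plus strand: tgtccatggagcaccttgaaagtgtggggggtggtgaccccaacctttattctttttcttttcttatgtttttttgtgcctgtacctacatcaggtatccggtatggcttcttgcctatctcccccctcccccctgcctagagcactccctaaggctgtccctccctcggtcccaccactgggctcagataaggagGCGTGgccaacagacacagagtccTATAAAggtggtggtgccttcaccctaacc
Cyp1a2, chr9:57683656-57683905, minus strand: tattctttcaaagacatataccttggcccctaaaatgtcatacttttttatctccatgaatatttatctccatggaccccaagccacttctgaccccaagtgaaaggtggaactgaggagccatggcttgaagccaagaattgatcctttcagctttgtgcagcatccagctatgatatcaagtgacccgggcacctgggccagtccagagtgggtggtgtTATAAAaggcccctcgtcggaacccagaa
Cyp1a2 had 248 and 261 CPM in wild-type soft, 107 and 104 in wild-type stiff, 589.6 and 618 in knockout soft and 653 and 618 in knockout stiff libraries. No library of one wild-type group overlapped the other, and the 4 knockout libraries lay above all wild-type ones. The log2 fold change on stiff was -1.27 in wild type (standard error 0.046, adjusted p = 1.68e-13 from edgeR), a 2.41-fold fall, and 0.07 in knockout (standard error 0.043), which did not pass. Against wild type, knockout was 2.37-fold higher on soft and 6.02-fold higher on stiff. Cyp1a1 was expressed far lower, with 2.89 and 2.28 CPM in wild-type soft, 1.11 and 0.660 in wild-type stiff, 6.09 and 5.52 in knockout soft and 6.14 and 5.39 in knockout stiff libraries. Its log2 fold change on stiff in wild type was -1.55 (standard error 0.29), and in knockout -0.01 (standard error 0.20). The third member of family 1, Cyp1b1, stayed at or under 0.54 CPM in each library and passed no comparison.

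Cyp2e1, which oxidizes ethanol and paracetamol and is the only member of its subfamily, had the largest fall on stiff among members with at least 100 counts on average. Its gene spans chr7:140343652-140354900 in the count table, whose positions match no GENCODE M21 (GRCm38) entry among the 75 members found there, so that no build is given for table positions. The bases before its start are shown, as those of the largest fall in a well-counted member, with TATAAA in capitals (RefSeq, GRCm38.p6).
Cyp2e1, chr7:140763569-140763818, plus strand: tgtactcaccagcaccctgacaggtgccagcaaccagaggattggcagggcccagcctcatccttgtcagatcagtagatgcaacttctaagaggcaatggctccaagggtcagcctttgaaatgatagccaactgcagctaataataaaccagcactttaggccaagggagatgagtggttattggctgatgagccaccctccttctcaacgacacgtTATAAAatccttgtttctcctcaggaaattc
Wild-type soft libraries had 246 and 223 CPM of Cyp2e1 and wild-type stiff libraries 70.4 and 69.5, whereas knockout libraries had 484 and 470.3 on soft and 473 and 496 on stiff. The wild-type fall was 3.35-fold (log2 fold change -1.75, standard error 0.051, adjusted p = 1.08e-14 from edgeR). The knockout value was 0.02 (standard error 0.046), and the difference of 1.77 between the genotypes passed (adjusted p = 1.96e-12 from edgeR). Relative to wild type, knockout cells had 2.03 times the level on soft and 6.93 times the level on stiff.

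Subfamily Cyp2a held the most abundant P450 transcripts and a pair of close relatives that responded differently. Cyp2a5, the coumarin hydroxylase, is pericentral, and Cyp2a4 is a testosterone hydroxylase. The 249 bases before their starts differ at 4 positions (98.4% identical) and are shown with those positions in capitals (RefSeq, GRCm38.p6, plus strand).
Cyp2a4, chr7:26306943-26307191: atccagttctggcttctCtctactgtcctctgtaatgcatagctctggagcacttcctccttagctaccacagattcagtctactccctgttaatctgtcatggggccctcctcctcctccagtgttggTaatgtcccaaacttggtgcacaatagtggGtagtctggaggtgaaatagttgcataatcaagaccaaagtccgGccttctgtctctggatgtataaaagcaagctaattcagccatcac
Cyp2a5, chr7:26835089-26835337: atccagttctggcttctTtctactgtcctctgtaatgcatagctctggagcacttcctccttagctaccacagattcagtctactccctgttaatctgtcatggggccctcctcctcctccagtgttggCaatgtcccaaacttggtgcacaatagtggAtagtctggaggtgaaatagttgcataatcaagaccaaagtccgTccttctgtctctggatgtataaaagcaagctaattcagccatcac
Cyp2a5 had 1002 and 1002 CPM in wild-type soft, 508 and 481 in wild-type stiff, 2366 and 2402 in knockout soft and 2322 and 2409.7 in knockout stiff libraries. It fell 2.03-fold on stiff in wild type (log2 fold change -1.02, standard error 0.034, adjusted p = 5.16e-14 from edgeR) and was 2.38-fold and 4.79-fold higher in knockout on soft and stiff. Cyp2a4 had 1615 and 1542 CPM on soft and 1792 and 1760.1 on stiff in wild type, against 1503 and 1494 on soft and 1454 and 1492 on stiff in knockout, a narrower range than that of Cyp2a5, with the wild-type libraries above the knockout ones. Its log2 fold changes were 0.17 on stiff in wild type, -0.07 in knockout on soft and -0.27 in knockout on stiff, none over 0.5 in size. Within each library the ratio of Cyp2a5 to Cyp2a4 counts was 0.62 and 0.65 in wild-type soft, 0.283 and 0.273 in wild-type stiff, 1.57 and 1.61 in knockout soft and 1.60 and 1.62 in knockout stiff libraries. The ratio was lowest on the stiff hydrogel in wild type and above 1 in each knockout library. Of the 64-base windows of their longest transcripts, 28.2% of Cyp2a4 and 31.2% of Cyp2a5 also occur in another gene, 443 of them in each other, so the counting of such reads could shift both counts. Cyp2a12, a steroid hydroxylase, had 205 and 203 CPM on soft and 213 and 203 on stiff in wild type, against 122 and 117 on soft and 114 and 115 on stiff in knockout, and fell in knockout on both hydrogels (log2 fold change -0.77 on soft and -0.86 on stiff).

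**Figure D3:**
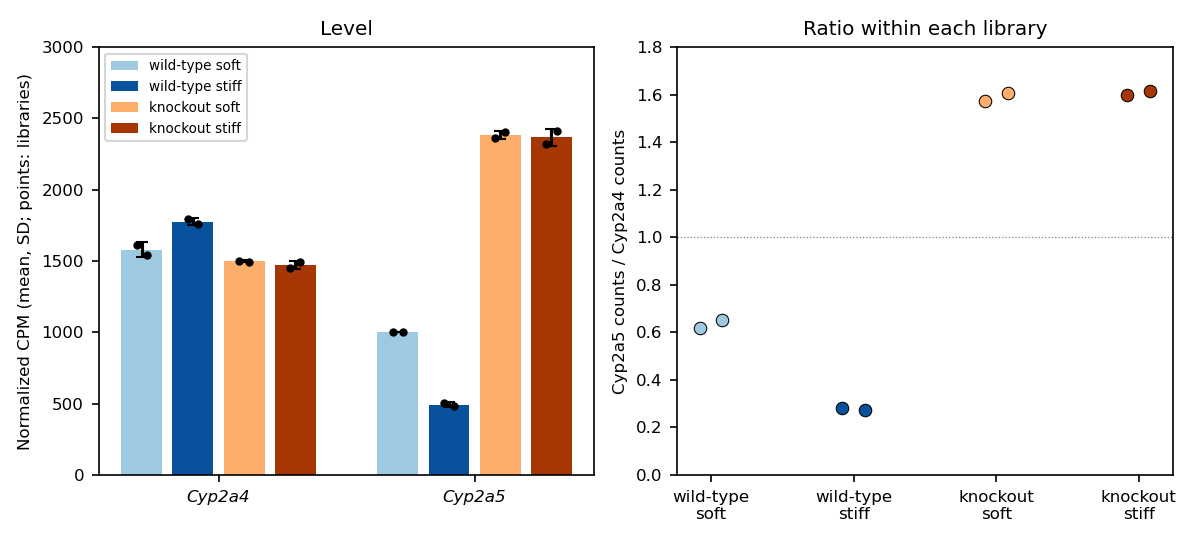
Left, normalized CPM of Cyp2a4 and Cyp2a5 in the 4 groups (bars: mean; error bars: SD; points: the 2 libraries). Right, the ratio of Cyp2a5 to Cyp2a4 counts in each library, which was 0.62 and 0.65 in wild-type soft, near 0.28 in wild-type stiff and near 1.6 in the knockout libraries.

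Subfamily Cyp2c, whose enzymes form epoxides of arachidonic acid and hydroxylate drugs, had the most tested members. By share of tested members, Cyp1a (2 of 2) and Cyp2e (1 of 1) lost more on stiff in wild type. Of the 13 tested Cyp2c members, 8 fell and none rose there, beside 9.26% lower and 10% higher among all genes tested. Cyp2c29, the most abundant of them, had 1329 and 1238 CPM in wild-type soft, 683 and 683 in wild-type stiff, 1171 and 1091 in knockout soft and 1058 and 1119.7 in knockout stiff libraries. The wild-type stiff libraries stood apart from the other 6, with a 1.88-fold fall on stiff (log2 fold change -0.91, standard error 0.042, adjusted p = 5.24e-12 from edgeR). Unlike Cyp2e1, Cyp1a2 and Cyp2a5, it was not higher in knockout on soft (log2 fold change -0.18, not past 0.5), and on stiff the value was 0.67, which passed. Cyp2c55 had the steepest fall of the subfamily, from 10.6 and 10.8 to 4.77 and 4.42 CPM in the wild-type libraries (log2 fold change -1.22, standard error 0.15), beside 8.59 and 8.65 CPM in knockout soft and 8.43 and 9.24 in knockout stiff libraries.

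The pericentral trio Cyp2c37, Cyp2c50 and Cyp2c54 moved by similar amounts. Cyp2c37 went from 65.5 and 62.8 CPM on soft to 43.6 and 43.4 on stiff in wild type, and stood at 92.5 and 88.1 CPM on soft and 88.3 and 89.9 on stiff in knockout. Cyp2c50 had 34.5 and 35.3 CPM in wild-type soft, 23.3 and 21.7 in wild-type stiff, 49.1 and 49.7 in knockout soft and 51.8 and 50.4 in knockout stiff libraries. Cyp2c54 had 21.6 and 20.99 CPM on soft and 14.3 and 14.2 on stiff in wild type, against 31.3 and 31.7 on soft and 32.7 and 32.6 on stiff in knockout. For all 3 genes the wild-type stiff libraries were lowest and the knockout libraries highest. The log2 fold changes on stiff in wild type were -0.56, -0.63 and -0.58, and in knockout -0.02, 0.05 and 0.05. Shared windows made up 14.5%, 14.3% and 15.7% of the 3 transcripts in that order. Cyp2c54 shared 162 windows with Cyp2c37, and Cyp2c50 shared 161 with Cyp2c54. These 3 counts are uncertain to that extent, and their likeness may in part come from shared reads, which was not tested.

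Cyp2c38 (group means 3.36 to 9.26 CPM), Cyp2c67 (20.05 to 37.7 CPM) and Cyp2c68 completed the list of Cyp2c genes that fell, with log2 fold changes on stiff in wild type of -0.95, -0.69 and -0.66 and in knockout of -0.13, -0.13 and -0.08. Cyp2c68 was the most abundant of these, with 146 and 134 CPM in wild-type soft and 95.3 and 82.3 in wild-type stiff libraries. The female-biased Cyp2c40 went the other way without passing on its own, at 148 and 108 CPM in wild-type soft and 173 and 167 in wild-type stiff libraries (log2 fold change 0.40). The value was 0.66 and passed without wild-type soft replicate 1, and was 0.20 without replicate 2. Its knockout libraries had 106 and 101 CPM on soft and 89.2 and 94.5 on stiff, it fell in knockout on stiff (log2 fold change -0.89), and its difference of the stiffness effect was -0.57 (adjusted p = 0.00267 from edgeR). That last call rested on the 2 wild-type soft libraries, which lay far apart, and without replicate 2 the difference was -0.38. Shared windows made up 63.1% of the Cyp2c40 transcript, 43.1% of Cyp2c67 and 34.1% of Cyp2c68, against 0.725% of Cyp2c29 and 0% of Cyp2c55, so the first 3 counts are uncertain. The 14 Cyp2c genes in 1 stretch of chromosome 19 (chr19:38995463-40175777 in the count table) include each of the 8 that fell, next to 4 tested neighbours that did not.

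In subfamily Cyp2d each of the 7 tested members had a negative log2 fold change on stiff in wild type, from -2.79 to -0.23. Of these, 3 passed, beside 9.26% lower among all genes tested. Cyp2d9, a male-biased steroid hydroxylase, had 18.6 and 18.7 CPM in wild-type soft, 7.76 and 6.96 in wild-type stiff, 32.6 and 29.8 in knockout soft and 28.3 and 33.3 in knockout stiff libraries. It fell 2.53-fold on stiff in wild type (standard error of the log2 fold change 0.12, adjusted p = 2.84e-08 from edgeR). Cyp2d13 fell from 6.01 and 6.55 to 4.002 and 4.83 CPM, a log2 fold change of -0.51 just past the threshold, and the call was lost without replicate 1 or 2 of wild-type soft or replicate 1 of wild-type stiff, where the values were -0.56, -0.44 and -0.37. Cyp2d11 had the largest fitted value, -2.79, from 20 and 58 counts in wild-type soft and between 3 and 11 counts in the other libraries. Without wild-type soft replicate 2, which held the 58 counts, it was -1.48 and no longer passed.

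The abundant members Cyp2d10 and Cyp2d26 were not counted as changed on stiff in wild type, with log2 fold changes of -0.39 and -0.25. For Cyp2d10 it was -0.55 and passed without wild-type soft replicate 1, and was -0.21 without replicate 2. Cyp2d10 ranged from 359 and 458 CPM in wild-type soft to 311 and 310.4 in wild-type stiff libraries, beside 417 and 482 on soft and 502 and 498 on stiff in knockout, and its difference of the stiffness effect was 0.55 (adjusted p = 9.76e-04 from edgeR). Without wild-type soft replicate 2 or knockout soft replicate 1 that difference was 0.35 or 0.44 and no longer exceeded 0.5. Cyp2d40 had 44.9 and 46.8 CPM on soft and 32.6 and 32.6 on stiff in wild type, against 29.7 and 28.8 on soft and 30.96 and 32.8 on stiff in knockout. Here wild-type soft was the only high group, so that the gene fell in knockout on soft (log2 fold change -0.65) and not on stiff (-0.03), with a difference of the stiffness effect of 0.61. Shared windows were 32.4% for Cyp2d10, 25.6% for Cyp2d11 and 18.7% for Cyp2d9, and these counts are uncertain to that extent.

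In subfamily Cyp2b, Cyp2b10, the usual marker of CAR activity, had 50.5 and 49.99 CPM on soft and 52.4 and 47.9 on stiff in wild type, against 52.3 and 52.4 on soft and 49.97 and 48.03 on stiff in knockout. It passed no comparison, and its log2 fold change on stiff in wild type was smaller than its standard error of 0.063. Cyp2b13, a female-biased gene, fell from 6.66 and 6.11 CPM on soft to 2.51 and 2.90 on stiff in wild type and had 14.1 and 13.6 CPM on soft and 12.3 and 12.99 on stiff in knockout. Its log2 fold change was -1.25 on stiff in wild type (standard error 0.17), 1.11 in knockout on soft and 2.23 in knockout on stiff. Shared windows made up 20.5% of its transcript. Its neighbour Cyp2b9, also female-biased, was lower in knockout, with log2 fold changes of -0.55 on soft and -0.76 on stiff.

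Cyp2f2, the periportal member, showed the reverse of the pericentral pattern in every comparison that passed. The bases before its start are shown as those of the one periportal member, with AGGTCA, a half-site of nuclear receptors also found in the windows of the pericentral Cyp2a5, Cyp2c29 and Cyp3a11, in capitals (RefSeq, GRCm38.p6).
Cyp2f2, chr7:27119705-27119954, plus strand: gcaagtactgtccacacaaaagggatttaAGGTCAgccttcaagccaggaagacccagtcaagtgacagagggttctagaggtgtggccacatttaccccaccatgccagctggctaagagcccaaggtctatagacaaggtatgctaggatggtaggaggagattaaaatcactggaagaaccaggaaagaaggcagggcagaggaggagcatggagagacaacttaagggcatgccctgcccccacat
Its level was 179 and 179 CPM in wild-type soft, 337 and 333 in wild-type stiff, 76.7 and 79.9 in knockout soft and 83.9 and 79.5 in knockout stiff libraries. The wild-type stiff libraries were the highest and the knockout libraries the lowest, with no overlap. Cyp2f2 rose 1.87-fold on stiff in wild type (log2 fold change 0.91, standard error 0.046, adjusted p = 1.66e-11 from edgeR), while the knockout value was 0.06 (standard error 0.049). In knockout it was 2.29-fold lower on soft and 4.10-fold lower on stiff. No 64-base window of its transcript occurs in another gene. Cyp2f2 shares a stretch of chromosome 7 (chr7:25501900-26858093 in the count table) with 12 other members of 5 subfamilies, where Cyp2a5 and Cyp2b13 fell and Cyp2f2 was the only gene to rise among 9 tested.

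The remaining subfamilies of family 2 gave few calls. Among the arachidonic acid epoxygenases of subfamily Cyp2j, Cyp2j5 had 35.9 and 31.4 CPM in wild-type soft, 43.6 and 44.4 in wild-type stiff, 39.8 and 34.9 in knockout soft and 34.05 and 33.4 in knockout stiff libraries. Neither stiffness effect passed for it (log2 fold change 0.38 in wild type and -0.15 in knockout), whereas their difference did (-0.53, adjusted p = 0.00154 from edgeR), and it was -0.46 without wild-type soft replicate 2 and -0.43 without knockout soft replicate 1, no longer over 0.5 in size. Cyp2r1, a vitamin D hydroxylase, Cyp2g1, Cyp2j6 and Cyp2j9 passed no comparison, and Cyp2u1 passed only in knockout against wild type on stiff.

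In family 3, Cyp3a11, the main target of PXR and the chief drug-metabolizing P450 of mouse liver, differed little between groups. It had 1095 and 1012 CPM in wild-type soft, 941 and 953 in wild-type stiff, 1126 and 1112 in knockout soft and 1078 and 1082 in knockout stiff libraries. Its log2 fold change on stiff in wild type was -0.15 (standard error 0.037), past the adjusted p but well inside 0.5, and no other comparison reached 0.5. None of the 6 tested Cyp3a members was counted on stiff in wild type. Cyp3a44, a female-biased gene, set the genotypes apart with 58.7 and 55.2 CPM on soft and 75.4 and 74.8 on stiff in wild type, against 19.98 and 18.9 on soft and 17.5 and 19.1 on stiff in knockout. It was 2.92-fold lower in knockout on soft and 4.11-fold lower on stiff, with adjusted p = 2.09e-11 and 3.82e-14 from edgeR. Cyp3a59 followed at a lower level, with log2 fold changes in knockout of -0.83 on soft and -1.04 on stiff. Shared windows made up 13.00% of Cyp3a44, 16.1% of Cyp3a59 and 0% of Cyp3a11.

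In family 4, the PPARA-responsive hydroxylases of fatty acids Cyp4a10 and Cyp4a14 were not counted on stiff, with log2 fold changes in wild type of 0.34 (standard error 0.078) and -0.01 (standard error 0.19). Cyp4a10 had 26.8 and 27.05 CPM in wild-type soft, 32.9 and 35.4 in wild-type stiff, 29.97 and 28.9 in knockout soft and 27.6 and 29.8 in knockout stiff libraries. Cyp4a14 had 4.89 and 5.22 CPM on soft and 5.26 and 4.73 on stiff in wild type, against 7.30 and 7.51 on soft and 5.43 and 7.86 on stiff in knockout, and was counted as higher in knockout on soft (log2 fold change 0.55, adjusted p = 0.0408 from edgeR). On stiff the value was 0.41 and did not pass, whereas without knockout stiff replicate 1 it was 0.65 and passed. The call on soft was lost when either library of wild-type soft, wild-type stiff or knockout soft was left out, with values from 0.51 to 0.60. Cyp4a32 was the second gene to rise on stiff in wild type, from 20 and 12 counts to 25 and 37 counts, beside 38 and 36 on soft and 39 and 22 on stiff in knockout (log2 fold change 1.08, standard error 0.40, adjusted p = 0.0399 from edgeR). Leaving out either wild-type soft library or wild-type stiff replicate 2 ended this call, with values of 1.21, 1.00 and 0.73, and 36.8% of its windows are shared. Among the Cyp4f genes, which hydroxylate leukotrienes and vitamin E, none of 5 tested was counted on stiff in wild type, and Cyp4f14 was lower in knockout on soft (-0.62) and on stiff (-0.85). Cyp4f15 was lower in knockout on soft (log2 fold change -1.01), a call lost without knockout soft replicate 1 at -0.79. Cyp4v3, the most abundant member of family 4 by CPM, had 187 and 173 CPM on soft and 138 and 147 on stiff in wild type, against 176 and 173 on soft and 170.2 and 176 on stiff in knockout, and passed no comparison.

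**Figure D4:**
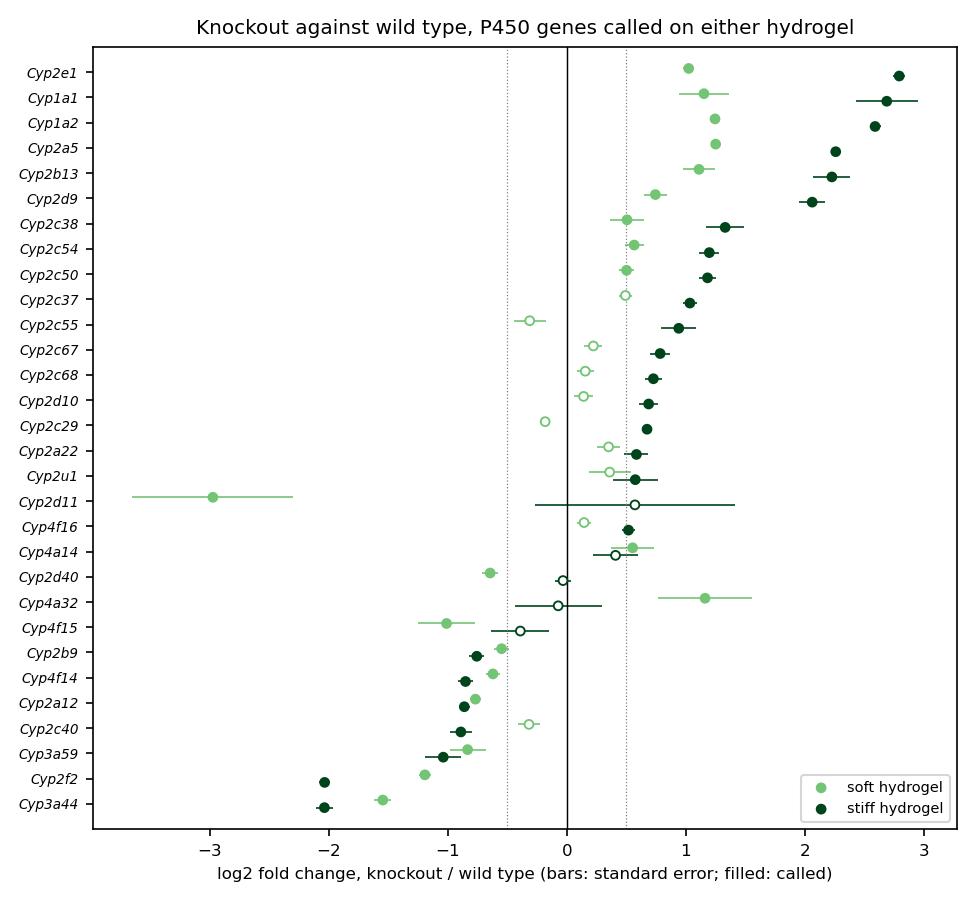
Log2 fold change of knockout against wild type (x axis) on the soft (light green) and the stiff hydrogel (dark green) for the P450 genes counted as changed on either one (y axis, ordered by the value on stiff), with bars of 1 standard error and filled points for counted genes. Cyp2e1, Cyp1a1, Cyp1a2 and Cyp2a5 lie furthest right on stiff (2.79, 2.69, 2.59 and 2.26), and Cyp2f2 and Cyp3a44 furthest left (both -2.04).

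Set out by lobule position, 7 of the 10 pericentral members fell on stiff in wild type and none rose, beside 9.26% lower and 10% higher among all genes tested, with a median log2 fold change of -0.61 beside -0.01 for all genes. In knockout 0 of the 10 passed (median -0.02), and for 7 of the 10 the stiffness effect was more positive in knockout, beside 8.64% of all genes (median difference 0.66). Knockout was higher for 6 of 10 on soft, beside 2.02% of all genes (median 0.53), and for 7 of 10 on stiff, beside 13.7% (median 1.11). Of the 6 on soft, Cyp2c50 (0.50) and Cyp4a14 (0.55) lay near the threshold of size and lost their calls under several alternatives. The 3 pericentral genes that did not fall were Cyp3a11, Cyp4a10 and Cyp4a14. The summed level of the 10 genes was 3888 to 4073 CPM in wild-type soft, 2409 to 2428 in wild-type stiff, 5899 to 5947 in knockout soft and 5790.0 to 5937 in knockout stiff libraries.

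**Figure D5:**
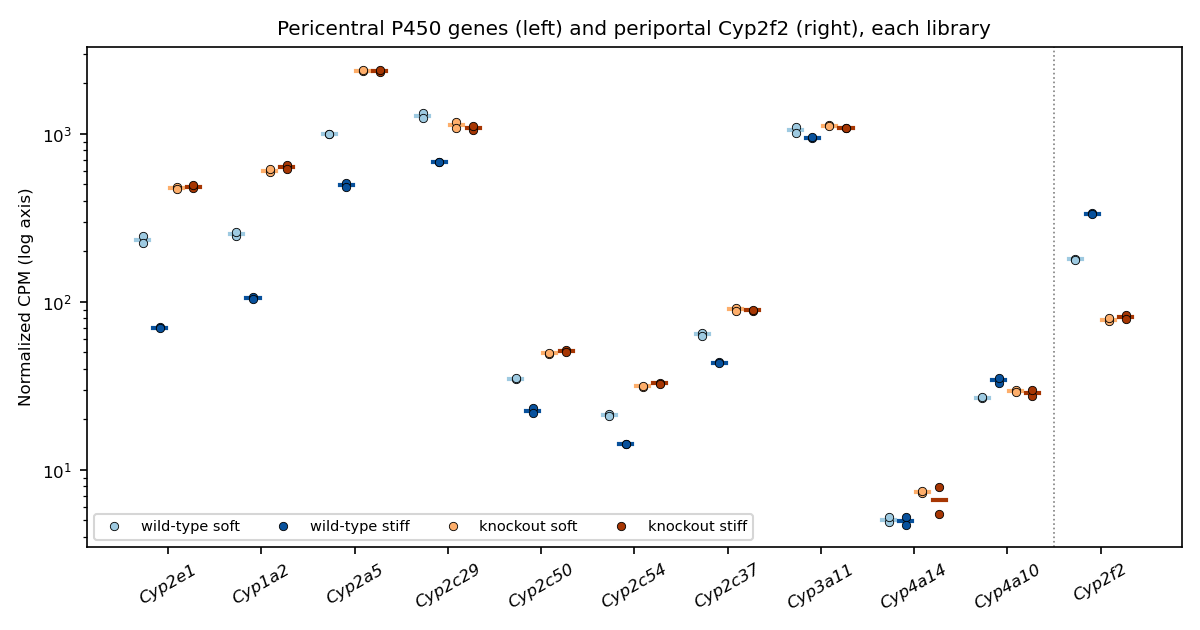
Normalized CPM (y axis, log scale) of the 10 pericentral P450 genes and, right of the dotted line, the periportal Cyp2f2, with 1 point per library and a bar at each group mean for the 4 groups. For Cyp2e1, Cyp1a2, Cyp2a5, Cyp2c29, Cyp2c50, Cyp2c54 and Cyp2c37 the wild-type stiff points are the lowest, while for Cyp2f2 they are the highest.

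Other genes with the same lobule positions were counted in the same way. Among all genes on stiff in wild type, 9.26% were lower and 10% higher. Of 7 tested pericentral genes that were not members, 3 fell on stiff in wild type. They were Glul, glutamine synthetase (log2 fold change -0.88), Lect2 (-0.88) and Gulo (-0.61). Oat and Rgn had values of 0.31 and 0.01, and the Wnt targets Axin2 and Lgr5 were too low to test. In knockout against wild type 1 of the 7 rose on soft and 3 on stiff, beside 2.02% and 13.7% of all genes. Of 10 other periportal genes, 2 rose on stiff in wild type (Ass1, 0.77, and Sult5a1, 0.65) and 2 fell (Hal, -0.52, and Hsd17b13, -0.60). In knockout 9 of these 10 fell on soft and 6 on stiff, beside 4.65% and 15% of all genes. Among those lower on soft were the urea cycle genes Ass1 (-0.64 on soft), Cps1 (-0.85) and Arg1 (-1.45).

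P450 enzymes depend on partners that supply electrons and haem, and the genes of these partners were counted too. Among all genes, 9.26% were lower and 10% higher on stiff in wild type. Of 5 electron donors and partners, Pgrmc1, a haem-binding partner, alone fell on stiff in wild type (log2 fold change -0.69), from 1831 and 1795 to 1100.1 and 1152 CPM. The reductase Por had 249.7 and 272 CPM in wild-type soft and 206 and 202 in wild-type stiff libraries (log2 fold change -0.36, under the threshold of size), and Cyb5a, which encodes cytochrome b5, had a value of -0.12. Of 12 genes of haem synthesis and breakdown, 1 fell, Blvrb, a biliverdin reductase (-0.71). Alas1, the first and rate-limiting step of haem synthesis, had a log2 fold change of 0.40 on stiff in wild type and fell in knockout on stiff (-0.80). Neither tested epoxide hydrolase, Ephx1 (-0.35) or Ephx2 (-0.25), was counted.

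Among 17 tested regulators of P450 genes, 4 fell on stiff in wild type and none rose: Cebpa (-0.99) and Hnf4a (-0.98), which maintain hepatocyte gene expression, Ppara (-0.61), and Arnt (-0.56), the partner of AHR. Over all genes tested, 9.26% were lower and 10% higher there. Hnf4a had 379 and 365 CPM in wild-type soft, 186 and 193 in wild-type stiff, 426 and 421 in knockout soft and 414 and 437 in knockout stiff libraries. The same 4 genes had a more positive stiffness effect in knockout (0.57 to 1.06), a call made for 8.64% of all genes. Against wild type 0 of the 17 passed in knockout on soft, beside 6.67% of all genes. On stiff 5 were higher (these 4 and Ncor1, 0.54) and 1 was lower (Ahr, -0.56), beside 13.7% and 15% of all genes. Ahr itself (0.13), the PXR gene Nr1i2 (-0.26) and the CAR gene Nr1i3 (0.10, at under 1 CPM) did not pass on stiff in wild type. Of 4 tested targets of AHR outside the P450 families, 3 fell on stiff in wild type, beside 9.26% of all genes. They were Ugt1a6a (-1.36), Ugt1a6b (-1.36) and Nqo1 (-0.70). Ugt1a6a and Ugt1a6b had the same value, and any sequence they share was not measured, so they may not be separate observations.

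Sex-biased P450 genes, which differ between male and female mouse liver, were also counted. Of 9 genes that are higher in female mouse liver, 2 fell on stiff in wild type (Cyp2b13, -1.25, and Cyp3a41b, -0.83) and none rose, beside 9.26% lower and 10% higher among all genes. Most of the 9 leaned the other way below the threshold of size. At an unadjusted p under 0.05 by edgeR, 5 were higher and 2 lower. The median log2 fold change of the 9 was 0.19, beside -0.01 for all genes. In knockout on soft, 3 of the 9 were lower and 1 was higher than in wild type, beside 4.65% and 2.02% of all genes. On stiff, 4 of these 9 were lower and 1, Cyp2b13, was higher in knockout than in wild type, beside 15% and 13.7% of all genes. Of 5 genes that are higher in male mouse liver, 3 were expressed enough to test, of which Cyp2d9 and Cyp7b1 (-0.65) fell on stiff in wild type. Cyp4a12a reached a group mean of at most 0.0639 CPM and Cyp4a12b had 0 counts in all libraries.

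The promoter windows of RefSeq (GRCm38.p6), from 250 bases before to 50 after each start, covered 62 of the 76 members with 69 windows. The 4 motifs were searched on both strands. TATAAA occurred in 39.1% of member windows and 13.6% of all 32851 windows, AGGTCA in 29.0% and 16.3%, GCGTG in 20.3% and 32.4%, and GGAATG (the core bound by TEAD factors, the partners of YAP and TAZ) in 14.5% and 14.7%. Of the 16 members that fell on stiff in wild type, 14 had a window; TATAAA was found in 10 of them, AGGTCA in 3, GGAATG in 3 and GCGTG in 2. A match is a description of these letters and not evidence of binding.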

How the data were processed

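RNA of mouse primary hepatocytes was sequenced as paired ends of 150 bases in 8 libraries. The authors aligned reads with HISAT2 (v2.0.5), counted them per gene with featureCounts and deposited raw counts without normalization. The submitters' processing notes name mm9, while table positions match no member in GENCODE M21 (GRCm38), so they are printed as deposited. How strand and reads matching several genes were counted is not given in the sources used here.

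Counts were filtered (filterByExpr by group, 14279 genes kept), scaled by TMM and fitted with edgeR 4.0.16 (glmQLFit, 1 term per group, all 8 libraries, 4 residual degrees of freedom, common biological coefficient of variation 0.0542) in R 4.3.3. Each comparison used glmQLFTest with Benjamini-Hochberg adjustment over all tested genes. A call needed adjusted p below 0.05 and a log2 fold change above 0.5 in size. Normalized CPM is the count divided by the TMM-scaled library total over tested genes. Alternatives used DESeq2 1.42.0, other scalings, filters and thresholds, a replicate term, robust empirical Bayes, the 4 libraries compared, and each library left out. Steps were tested on simulated data. Replicates of a group differed by more than sampling noise (chi-square per degree of freedom 2.62 to 5.45).

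Members and lists were chosen with earlier results of these data known. Named with values are members called in wild type or in the difference of the stiffness effect with a mean of at least 100 counts, the 10 highest per kilobase in wild-type soft, the zonated genes, and in each other comparison the 5 largest rises and falls. Other members (Cyp1b1, Cyp2b9, Cyp2b10, Cyp2u1, Cyp4f13, Cyp4f14, Cyp4f16 and Cyp4v3 among them) were named after their values were seen. Shared windows are the percent of 64-base windows of the longest GENCODE M21 transcript found in another gene (75 members matched). Intervals and limits cover counting error only. A list of other PPARA targets is not reported here.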

Additional observations from a re-analysis of the deposited data

Results flagged for a closer look

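The effect of stiffness differed between wild-type and knockout hepatocytes for 20 members by the interaction term of edgeR's quasi-likelihood fit (adjusted p under 0.05 and a difference over 0.5), which is what singled them out. The values are differences of log2 fold changes, knockout minus wild type. The difference was positive for Cyp2d11 (3.55), Cyp2e1 (1.77), Cyp1a1 (1.54), Cyp1a2 (1.35), Cyp2d9 (1.32), Cyp2c55 (1.25), Cyp2b13 (1.12), Cyp2a5 (1.01), Cyp2c29 (0.86), Cyp2c38 (0.82), Cyp2c50 (0.68), Cyp2c54 (0.63), Cyp2d40 (0.61), Cyp2c68 (0.57), Cyp2c67 (0.56), Cyp2d10 (0.55) and Cyp2c37 (0.54). It was negative for Cyp2f2 (-0.84), Cyp2c40 (-0.57) and Cyp2j5 (-0.53). Of the 17 positive ones, Cyp2d10 and Cyp2d40 were not called on stiff in wild type, and the other 15 fell there; without wild-type soft replicate 1 both were called there as well (-0.55 and -0.51). Cyp2d13, the remaining gene that fell in wild type, had a difference of 0.35 with adjusted p = 0.315 from edgeR, which did not pass. Some of these calls rested on single libraries: Cyp2d11, with 3 to 58 counts, passed no longer without wild-type soft replicate 2, wild-type stiff replicate 1, knockout soft replicate 2 or knockout stiff replicate 1 (2.23 to 3.17). Cyp2c67 and Cyp2c37 slipped to 0.46 and 0.49 without wild-type soft replicate 1, and Cyp2c68 to between 0.46 and 0.50 without any of 4 libraries. Cyp3a44, which missed the threshold at -0.49, passed with DESeq2 at -0.50 and without wild-type soft replicate 1 at -0.55.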

How the results depend on the processing

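Among the values of named members under the alternatives, no called value changed sign and 2777 values stayed on their side of the threshold (values that were not called could change sign, such as Cyp4a32 in knockout on stiff, from -0.50 to 0.27), 92 no longer passed and 38 came to pass. In knockout, 0 members were called on stiff against soft under every alternative run, the 8 that leave out a library included. With DESeq2, 1 member rose and 15 fell on stiff in wild type, and 17 were higher and 4 lower in the difference. Against wild type it called 8 higher and 9 lower in knockout on soft, and 18 and 7 on stiff. Without a minimum fold change, 10 rose and 27 fell on stiff in wild type, 25 were higher and 7 lower in the difference of the stiffness effect, 14 higher and 16 lower in knockout on soft, and 24 higher and 13 lower on stiff. Above a log2 fold change of 1, 1 rose and 8 fell on stiff in wild type, 8 and 0 were higher and lower in the difference, 6 and 4 in knockout on soft, and 10 and 3 on stiff. With members under 10% shared windows alone (32 tested, chosen after seeing the data), 1 rose and 6 fell on stiff in wild type. The difference had 7 higher and 2 lower, knockout on soft 5 and 5, and knockout on stiff 7 and 3. Among all genes tested, 10% rose and 9.26% fell on stiff in wild type, and 8.64% and 8.21% were higher and lower in the difference. The shares were 2.02% and 4.65% in knockout on soft, and 13.7% and 15% on stiff. In either direction, the share of these 32 was near that of all genes on stiff in wild type and in knockout on stiff. It lay further above for the difference and in knockout on soft. Leaving out each library in turn gave 1 to 2 higher and 14 to 17 lower on stiff in wild type, 14 to 16 higher and 1 to 4 lower in the difference, 8 to 10 higher and 8 to 9 lower in knockout on soft, and 16 to 18 higher and 7 to 8 lower on stiff; the group left with 1 library was assumed to vary like the others. The lowest of these counts for rises in wild type (1) came without wild-type soft replicate 2 or wild-type stiff replicate 2, and that for negative differences (1) without wild-type soft replicate 2.

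Libraries with the same replicate number did not deviate together (correlations -0.101 to 0.0424 between groups). With 1 difference per group and gene, these correlations cannot exclude that the numbers pair the samples. With a replicate block, 1 member rose and 16 fell on stiff in wild type (the rise of Cyp4a32 was lost, adjusted p = 0.0533 from edgeR), 17 were higher and 3 lower in the difference, 9 and 9 were higher and lower in knockout on soft, and 18 and 7 on stiff.

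The calls that depended most on the setting were those of low counts or values near 0.5. Cyp4a32 and Cyp2d13 on stiff in wild type missed the adjusted p with DESeq2 (0.0932 and 0.1). Cyp2c40 and Cyp2d10 in the difference missed it with robust empirical Bayes (0.148 and 0.125). In knockout on soft, Cyp2c38, Cyp2c50, Cyp4a14 and Cyp4a32 lost their calls under 4 or more alternatives. The causes were not tested.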
